A study of Mus musculus with 4 samples.

Results

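The miRNAs of the imprinted Dlk1-Dio3 domain of mouse chromosome 12 were followed in extracellular vesicles (EVs) secreted by primary hepatocytes. The members were the 113 miRNAs, of 1881 on the array, that the authors' annotation placed on chromosome 12 between start positions 109563710 (miR-770-5p) and 109747928 (miR-3072-3p) of GRCm38, a stretch of 184.2 kb. In this domain Dlk1, Rtl1 and Dio3 are expressed from the paternal chromosome, whereas the long non-coding RNAs Meg3, Rian and Mirg and the miRNAs among them are expressed from the maternal chromosome. The miRNAs are processed from long maternal transcripts and are best known from placenta, embryo, brain and muscle, and in adult liver the domain is largely quiet. A mature miRNA pairs with its target mRNAs mainly through the seed, bases 2 to 8 from its 5′ end.

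Each of the 4 groups was 1 one-colour (Cy3) array hybridised with RNA from a pool of 4 animals. Chow-EV and HFD-EV came from hepatocytes of wild-type male mice on chow or a high-fat diet (HFD) for 12 weeks, and Chow-LKO EV and HFD-LKO EV from mice on the same diets lacking Ggpps, the gene of geranylgeranyl diphosphate synthase, in what the study describes as a liver-specific knockout. The labels give the strain of all 4 groups as B6 and the age as 20 weeks, and hepatocytes were cultured for 48 h in medium depleted of EVs before collection. The knockout carried floxed Ggpps and Mx1-Cre, an interferon-responsive transgene that is not restricted to hepatocytes by its promoter, and was induced with polyinosinic-polycytidylic acid before the diet began. Whether the wild-type mice were also injected is not stated in the methods, so injection, Cre and loss of Ggpps cannot be told apart here, and the arrays hold no probe for Ggpps. With 1 array per group no test was made. Errors (±) are SDs over the repeated spots of an array, and so leave out any variation among animals, hepatocyte cultures or vesicle preparations.

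The array signals were scaled to the Chow-EV array by the 75th percentile over 443 miRNAs above background on all 4 arrays, and are given in these scaled units throughout. Between 482 and 508 miRNAs (25.6% to 27.0%) were above background on an array, no spot was saturated, and all arrays were on 1 slide read in 1 scan. All 5 hepatocyte-enriched miRNAs examined were above background on every array, among them miR-122-5p, the most hepatocyte-restricted of them, at 73849 to 82848. Neither neural miRNA (miR-124-3p and miR-9-5p) was above background on any array. The 5 hepatocyte-enriched miRNAs summed to 84542 to 94514, both endothelial miRNAs to 1006 to 1416, the 5 immune and Kupffer cell miRNAs, 3 of which were above background, to 379 to 642, the 5 mesenchymal miRNAs, 1 of which was above background, to 42.2 to 67.7, and the erythroid pair, of which only miR-451a was above background, to 29.2 to 84.3.

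The sequences on which the results turn are the mature forms of the members that differed between arrays, and of near-identical members that did or did not pass background. They are RefSeq sequences on GRCm38.p6, written 5′ to 3′ with the seed in capitals. RefSeq held a mature sequence for 109 of the 113 members, and the start position in the authors' annotation was the RefSeq start for all 109.
miR-494-3p: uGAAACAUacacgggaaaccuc
miR-370-3p: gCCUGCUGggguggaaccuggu
miR-770-3p: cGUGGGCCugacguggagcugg
miR-3072-5p: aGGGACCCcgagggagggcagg
miR-432: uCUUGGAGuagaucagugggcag
miR-3070-3p: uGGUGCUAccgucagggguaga
miR-3070-2-3p: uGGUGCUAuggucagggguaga
miR-300-3p: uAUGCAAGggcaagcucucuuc
miR-381-3p: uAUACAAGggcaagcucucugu
The seeds of miR-494-3p, miR-370-3p and miR-770-3p all differed, and among miRNAs on the array with 1 RefSeq sequence none had the seed of any of these. miR-3070-3p and miR-3070-2-3p share the seed GGUGCUA and differ at positions 9 and 10 from the 5′ end (C9U and C10G, with miR-3070-3p as the reference). miR-300-3p and miR-381-3p differ inside the seed (G4A) and at the 3′ end (U21G and C22U, with miR-300-3p as the reference).

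Of the 113 members, 12 (10.6%) were above background on at least 1 array and 10 on all 4, while 542 of 1881 miRNAs on the array (28.8%) were above background on at least 1. The members above background were spread along the whole stretch. They were 1 of 2 miRNAs within the Meg3 gene (miR-770-3p), 3 of 28 in the span of Rtl1 from miR-673-5p to miR-136-3p (miR-3070-3p, miR-3070-2-3p and miR-432), 3 of 6 within Rian from miR-341-5p to miR-370-3p (miR-341-3p, miR-1188-5p and miR-370-3p), 4 of 58 between Rian and Mirg from miR-882 to miR-485-3p (miR-494-3p, miR-666-5p, miR-300-3p and miR-134-5p) and 1 of 19 within Mirg from miR-453 to miR-3072-3p (miR-3072-5p). All 3 miRNAs taken as markers of the cluster (miR-370-3p, miR-494-3p and miR-770-3p) were among the 10 above background on every array. They were chosen with earlier results of these data known, so their detection is not independent of that choice. The group between Rian and Mirg, which runs on into Mirg, is known as the miR-379 to miR-410 cluster and is processed from shared transcripts. Both miRNAs that name it were below background, and miR-379-5p lay between 2.08 and 4.36 and miR-410-3p between -2.71 and -1.01. Of 54 hairpins with both arms on the array, 10 had 1 arm above background and 0 had both. The same share over all hairpins of the array is not given, so this is not shown to be particular to the cluster. miR-494-5p, the other arm of the miR-494 hairpin, stayed between -1.15 and -0.21 on the arrays where miR-494-3p gave 22305 to 79677.

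**Figure D1:**
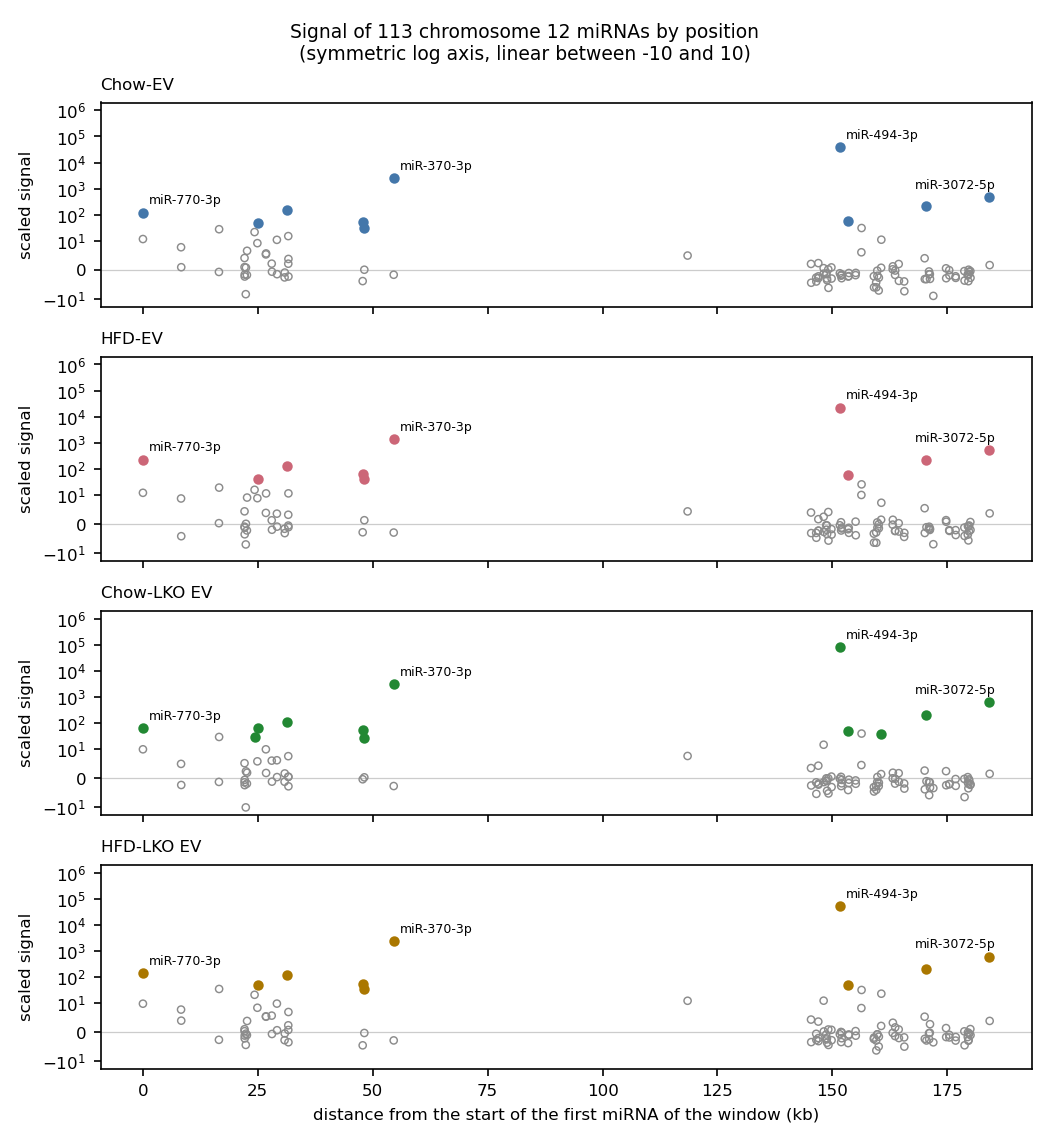
Scaled signal of the 113 miRNAs on each array (vertical axis, symmetric log scale) against distance in kb from the first of them (horizontal axis). Filled points are above background and open points are not. The 10 to 12 filled points of each array are scattered over 184.2 kb among open points near 0.

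The 101 members below background on every array had median scaled signals of -1.46 to -0.73 on the 4 arrays, and 64 to 68 of them lay below 0 after background subtraction. Their highest values were 31.2, 25.6 and 39.4 for miR-667-3p on both wild-type arrays and Chow-LKO EV, and 35.1 for miR-493-3p in HFD-LKO EV. These upper values overlapped the lowest signals called above background among all miRNAs, which were 13.2 to 18.1. The 4 probes of these miRNAs were summed, while the call was made per probe, so a sum can exceed this level with no probe called. Members below background include miR-127-3p and miR-136-3p, which lie opposite to Rtl1 and are complementary to its mRNA, and miR-381-3p, at 1.23 to 3.27. Not above background means here that no level was measurable at this signal, and not that the miRNA was absent.

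The mature sequences of the members above background had a median GC content of 60.5%, compared with 47.8% for 97 members below background, and over the whole array the medians were 56.5% for 465 miRNAs above background and 50% for 1143 below. Of the 49 members with a GC content above the median of 50%, 10 were above background, compared with 2 of the 60 at or below it. Those 2 were miR-494-3p (45.5%) and miR-300-3p (50%). The part of the probe that pairs with the miRNA had a median length of 15.0 bases for members above background and 18.0 for the others, so GC content and probe length moved together with detection, and their part in the calls was not tested. The tetramer GGAG, which has been described in miRNAs exported in exosomes of human T cells, was present in miR-770-3p (from position 15), miR-432 (from position 5) and miR-3072-5p (from position 13). That is 25.0% of the 12 members, compared with 8.25% of members below background, 30.3% of all miRNAs above background and 7.87% of all below it. The tetramer GGCU was in none of the 12, in 11.3% of members below background, in 15.3% of all miRNAs above background and in 12.2% of all below it. Both were searched on the mature RNA strand only.

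Almost all of the signal of the cluster came from miR-494-3p (chr12:109715367-109715388, plus strand), as read by 2 probes whose specificity was not tested. Its signal was 38713 ± 598 in Chow-EV (28 spots of 2 probes) against 22305 ± 549 in HFD-EV, while Chow-LKO EV gave 79677 ± 939 against 52698 ± 1012 in HFD-LKO EV. Both knockout arrays were higher than both wild-type arrays, and within each genotype the HFD array was the lower. The log2 ratio of knockout to wild type was 1.04 ± 0.03 on chow and 1.24 ± 0.05 on HFD, or 2.06-fold and 2.36-fold. The log2 ratio of HFD to chow was -0.80 ± 0.04 in wild-type EVs and -0.60 ± 0.03 in knockout EVs. The genotype ratio on HFD exceeded that on chow by 0.20 ± 0.05, and the same difference separates the diet ratios since the 4 comparisons share their arrays. The sign of this difference depended on the scaling, which the spot SD does not cover. With no scaling the genotype ratio was 1.32 on chow and 1.15 on HFD, the reverse order. Both probes of miR-494-3p were past 2-fold for knockout to wild type on chow, the lower of them at a log2 ratio of 1.01. They gave 1.20 and 1.26 on HFD, and -0.83 and -0.73 for HFD to chow in wild type. Among all miRNAs with a ratio, miR-494-3p ranked 12th of 463 from the top for genotype on chow and 18th of 474 on HFD, and 27th of 477 and 33rd of 466 from the bottom for diet in wild-type and knockout EVs.

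With this miRNA included, the members took 6.86% of the summed signal of miRNAs above background in Chow-EV against 4.23% in HFD-EV, while their share was 14.3% in Chow-LKO EV against 9.46% in HFD-LKO EV. miR-494-3p alone took 6.27%, 3.77%, 13.5% and 8.86%, and all other members together 0.587%, 0.458%, 0.737% and 0.604%. Such shares refer to fluorescence and cannot be read as numbers of molecules, since each probe has its own response.

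The miRNAs whose pattern over the 4 arrays was closest to that of miR-494-3p, among 442 others above background on all 4, were miR-6407, miR-710 and miR-711, none of them in the window. The root mean square difference of their centred log2 signals from those of miR-494-3p was 0.087, 0.10 and 0.11. miR-6407 had signals of 239.6, 119.7, 498.5 and 311.8 on the 4 arrays (wild type on chow and HFD, then knockout on chow and HFD). miR-370-3p, the member of the cluster with the closest pattern, ranked 31st at 0.31, followed by miR-3070-2-3p in place 67 at 0.44, while miR-770-3p was in place 430 at 1.31.

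miR-370-3p (chr12:109618305-109618326, plus strand) lies within Rian and has been reported to lower CPT1A, the gate of mitochondrial fatty-acid oxidation, in human hepatoma cells. Its signal was 2464 ± 67.6 in Chow-EV against 1402 ± 42.5 in HFD-EV, while Chow-LKO EV gave 3096 ± 82.9 against 2336 ± 52.1 in HFD-LKO EV. HFD-EV was the lowest array and Chow-LKO EV the highest, as for miR-494-3p, but Chow-EV and HFD-LKO EV lay close together. The log2 ratio of knockout to wild type was 0.33 ± 0.06 on chow and 0.74 ± 0.05 on HFD, a difference of 0.41 ± 0.08. The size of this difference depended on the scaling, which the spot SD does not cover. Over the alternatives tried, the ratio was 0.20 to 0.60 on chow and 0.64 to 0.84 on HFD. Unscaled signals of wild type and knockout were 2464 and 3744 on chow, and 1548 and 2427 on HFD, which are nearly the same ratio. The log2 ratio of HFD to chow was -0.81 ± 0.06 in wild-type and -0.41 ± 0.05 in knockout EVs. Its 2 probes differed by at most 0.028 in the log2 ratio of any comparison.

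Beside these differences, the mesenchymal miRNA miR-199a-3p was at 29.2, 27.8, 47.5 and 38.7 on the 4 arrays in that order, and the myeloid miRNA miR-223-3p at 179.5, 160.1, 302.2 and 264.9. For miR-199a-3p the log2 ratio of knockout to wild type was 0.70 ± 0.28 on chow and 0.48 ± 0.30 on HFD. The ratio on HFD was within 2 spot SDs. The immune list did not move as one, since miR-142a-3p, at 61.5, 114.7, 38.2 and 76.4, ran the opposite way to miR-494-3p, and miR-155-5p, at 128.2, 195.5, 158.0 and 283.4, was higher on HFD in both genotypes. The erythroid miRNA miR-451a was at 28.5, 40.2, 50.9 and 84.9, and was higher in knockout by log2 ratios of 0.84 on chow and 1.08 on HFD. The endothelial miRNA miR-126a-3p was lower in knockout, with log2 ratios of -0.36 ± 0.05 on chow and -0.44 ± 0.04 on HFD. For miR-126a-5p the same ratios were -0.03 ± 0.19 and -0.25 ± 0.23. Among hepatocyte-enriched miRNAs, miR-194-5p had log2 ratios of knockout to wild type of -0.68 on chow and -0.64 on HFD. On the same diets miR-122-3p had -0.49 and -0.61, and miR-148a-3p -0.33 and -0.38. The hepatocyte list did not move as one either, since miR-122-5p had -0.16 and 0.0014, and miR-192-5p 0.045 and 0.054. The other 4 mesenchymal miRNAs (miR-199a-5p, miR-214-3p, miR-143-3p and miR-145a-5p) were below background on all 4 arrays. The mesenchymal list summed to 47.0, 42.2, 67.7 and 55.4 and the immune list to 378.9, 484.1, 511.8 and 641.7 in the same order. The part of any of these cell types in the differences of miR-494-3p and miR-370-3p was not tested, and in bulk EVs fewer vesicles of a cell type cannot be told apart from less miRNA per vesicle.

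miR-770-3p (chr12:109563744-109563765, plus strand), which lies within Meg3, ran the opposite way. Its signal was 119.0 ± 8.5 in Chow-EV against 224.2 ± 8.2 in HFD-EV, while Chow-LKO EV gave 62.1 ± 6.0 against 141.5 ± 6.7 in HFD-LKO EV. Within each genotype the HFD array was the higher, and on each diet the knockout array was the lower. The log2 ratio of HFD to chow was 0.91 ± 0.12 in wild-type and 1.19 ± 0.16 in knockout EVs, and that of knockout to wild type was -0.94 ± 0.17 on chow and -0.66 ± 0.09 on HFD. All 4 of its probes had the same sign in each comparison, with log2 ratios of 0.48 to 1.25 for diet in wild type and -1.24 to -0.71 for genotype on chow. In Chow-LKO EV only 2 of the 4 probes were above background, at signals near the lower limit. With the offset of 50 added per spot by normexp, or in the authors' normalised values, the log2 ratio for diet was 0.33 and 0.33 in wild-type and 0.46 and 0.47 in knockout EVs, and for genotype it was -0.43 and -0.32 on chow and -0.30 and -0.18 on HFD.

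Of the immune and Kupffer cell list, the haematopoietic miRNA miR-142a-3p was higher on HFD and lower in knockout, as miR-770-3p was. miR-223-3p was lower on HFD and higher in knockout, with log2 ratios of knockout to wild type of 0.75 on chow and 0.73 on HFD, and miR-155-5p was higher on HFD and also higher in knockout. The other arm miR-142a-5p and miR-150-5p, a lymphocyte miRNA, were below background on all 4 arrays. The part of these cells in the miR-770-3p signal was not tested.

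**Figure D2:**
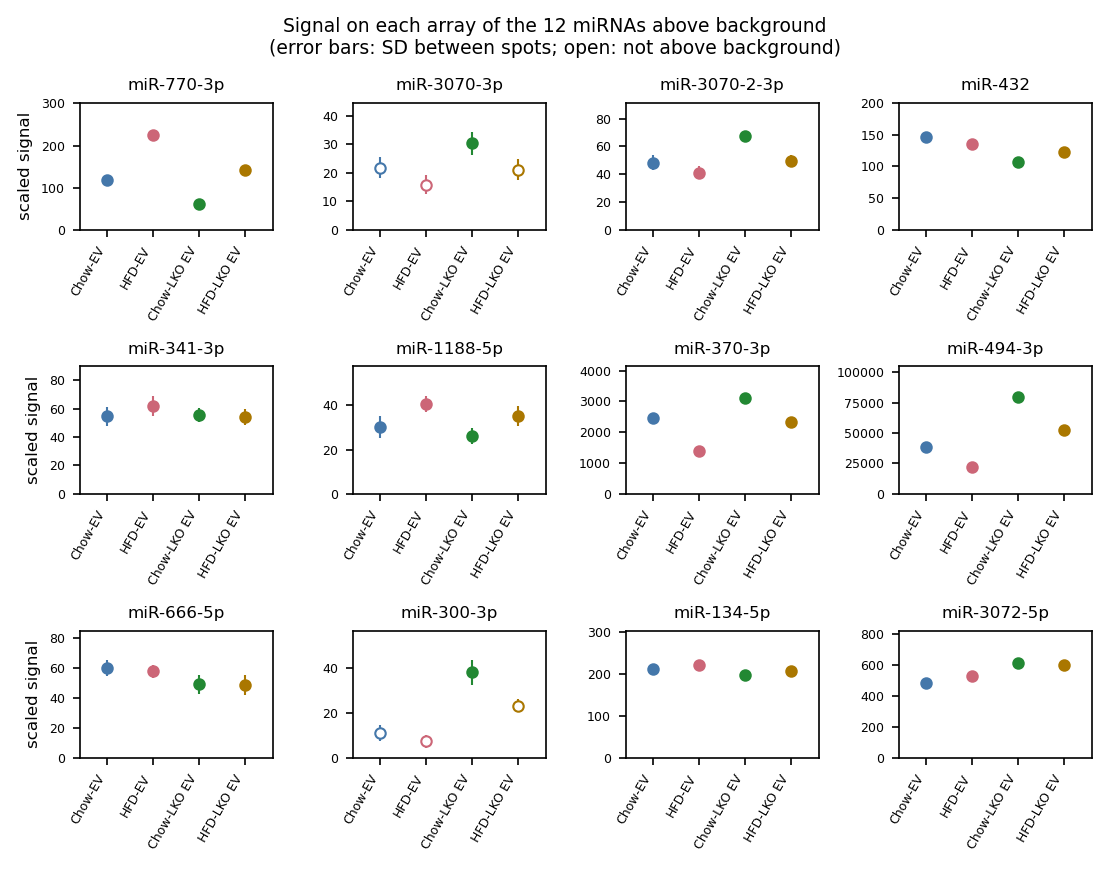
Scaled signal (vertical axis, linear from 0) of each of the 12 miRNAs above background on at least 1 array, for the 4 arrays on the horizontal axis. Points are 1 array each, error bars are the SD between spots, and open points are not above background; miR-494-3p and miR-370-3p are highest in Chow-LKO EV and lowest in HFD-EV, and miR-770-3p is the reverse.

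In the span of Rtl1, miR-3070-2-3p had signals of 48.2 ± 5.4, 41.1 ± 4.5, 67.2 ± 3.3 and 49.4 ± 4.2 on the 4 arrays in that order. Chow-LKO EV was the highest, with log2 ratios of 0.48 ± 0.18 to Chow-EV and 0.44 ± 0.14 over HFD-LKO EV, but with normexp the log2 ratio to Chow-EV was -0.038 and that of HFD-LKO EV to Chow-LKO EV was -0.023. miR-3070-3p, which shares its seed, was above background in Chow-LKO EV only, at 30.3 ± 4.0. It was at 21.8 ± 3.7 in Chow-EV and, on the HFD arrays, at 15.8 ± 3.3 in wild type and 21.0 ± 3.6 in knockout. Against these signals, which were not above background, Chow-LKO EV was 1.39-fold higher than Chow-EV and 1.44-fold higher than HFD-LKO EV. The sequences of miR-3070-3p and miR-3070-2-3p differ at 2 of 22 bases, and how far the array separates them was not tested. miR-432 had signals of 146.5 ± 7.9, 134.7 ± 6.9, 106.2 ± 8.2 and 122.4 ± 7.3, and only the ratio of Chow-LKO EV to Chow-EV, a log2 value of -0.46 ± 0.14, exceeded 2 spot SDs.

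Between Rian and Mirg, miR-300-3p was above background in Chow-LKO EV only. Its signal was 38.1 ± 5.5 there, compared with 11.1 ± 3.6 in Chow-EV, 7.33 ± 2.78 in HFD-EV and 23.1 ± 3.0 in HFD-LKO EV, where 46.2% and 40.0% of the spots of its 2 probes were marked above background. It was at least 2.45-fold higher in Chow-LKO EV than in Chow-EV, against the lowest signal above background in Chow-EV, which exceeded its own. Against its own signal in HFD-LKO EV, which was not above background, it was 1.64-fold higher in Chow-LKO EV. miR-381-3p, which differs from it at 3 of 22 bases, stayed below background on all 4 arrays.

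miR-3072-5p, at the end of the stretch, had signals of 486.1 ± 16.7, 525.7 ± 10, 613.6 ± 19.6 and 599.1 ± 14.7 on the 4 arrays in that order, and its log2 ratios of knockout to wild type were 0.34 ± 0.07 on chow and 0.19 ± 0.04 on HFD. miR-134-5p, a miRNA of neuronal dendrites that represses Limk1, had signals of 211.1 ± 9.1, 221.3 ± 11.3, 195.7 ± 9.9 and 206.5 ± 8.7 in the same order, and none of its log2 ratios, -0.11 to 0.08, exceeded 2 spot SDs. Also within 2 spot SDs in every comparison were miR-341-3p (54.3 to 61.9), miR-1188-5p (26.2 to 40.7) and miR-666-5p (48.4 to 59.8). In miR-666-5p only 1 of 4 probes was above background on each knockout array.

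In HFD-EV compared with Chow-EV, 0 of 10 members with a ratio differed by at least 2-fold, and over the whole array 2.74% of 511 miRNAs were at least 2-fold higher and 1.76% were at least 2-fold lower. The median log2 ratio of the 10 members was 0.0071, with 5 above 0 and 5 below, compared with a median of 0.10 over 477 miRNAs. miR-770-3p was higher, and miR-494-3p and miR-370-3p were lower, by more than 2 spot SDs. How many of all miRNAs passed 2 spot SDs is not given, here or below, so this describes single members only.

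In Chow-LKO EV compared with Chow-EV, 2 of 12 members with a ratio or a bound were at least 2-fold higher, miR-494-3p by its ratio and miR-300-3p by its bound, and 0 were at least 2-fold lower. Over the array 2.92% of 514 miRNAs were at least 2-fold higher and 5.45% were at least 2-fold lower. The median log2 ratio was -0.045 over 10 members, and -0.11 without miR-494-3p, compared with -0.13 over 463 miRNAs. By more than 2 spot SDs, miR-494-3p, miR-370-3p, miR-3072-5p and miR-3070-2-3p were higher, and miR-770-3p and miR-432 were lower. The ratio of miR-494-3p lay near the 2-fold limit, with log2 values of 0.92 to 1.32 over the alternatives tried, and fell short of it when each miRNA was represented by its brightest probe in both signal and scaling, with the total gene signal and in the authors' normalised values.

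In HFD-LKO EV compared with HFD-EV, 1 of 10 members, miR-494-3p, was at least 2-fold higher and 0 were at least 2-fold lower, while over the array 7.87% of 521 miRNAs were at least 2-fold higher and 7.49% were at least 2-fold lower. The median log2 ratio was -0.12 over the members and -0.064 over 474 miRNAs. By more than 2 spot SDs, miR-494-3p, miR-370-3p and miR-3072-5p were higher, and miR-770-3p was lower. The log2 ratio of miR-494-3p stayed between 1.15 and 1.34 in every alternative tried.

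In HFD-LKO EV compared with Chow-LKO EV, 1 of 12 members, miR-770-3p, was at least 2-fold higher and 0 were at least 2-fold lower, while over the array 4.21% of 522 miRNAs were at least 2-fold higher and 1.53% were at least 2-fold lower. The ratio of miR-770-3p fell short of 2-fold with no scaling, at a log2 value of 0.97, with normexp, at 0.46, and in the authors' normalised values, at 0.47. The median log2 ratio was -0.022 over 10 members and 0.14 over 466 miRNAs. By more than 2 spot SDs, miR-770-3p was higher, and miR-494-3p, miR-370-3p and miR-3070-2-3p were lower. With 10 to 12 members measured, 1 or 2 members past 2-fold is a description of those miRNAs and not of the cluster. In all 4 comparisons members lay on both sides of 0, and so did all miRNAs with a ratio. Members above 0 were 5, 5, 4 and 4 of 10, in the order in which the comparisons are given. Of all miRNAs with a ratio, 59.958%, 38.445%, 44.515% and 62.017% were above 0 in the same order. The split of signs is thus not shown to be particular to the cluster.

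**Figure D3:**
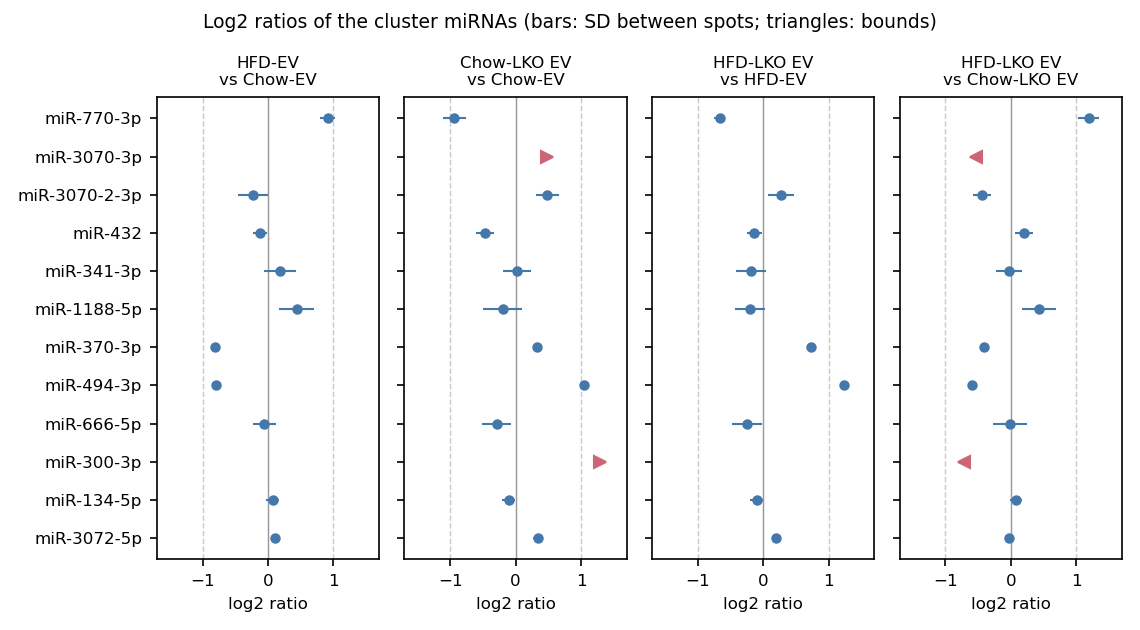
Log2 ratio (horizontal axis) of each of the 12 miRNAs (vertical axis) in the 4 comparisons, with the SD between spots as error bars and dashed lines at 2-fold. Triangles are bounds for miR-3070-3p and miR-300-3p; the points lie on both sides of 0 in every comparison.

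**Figure D4:**
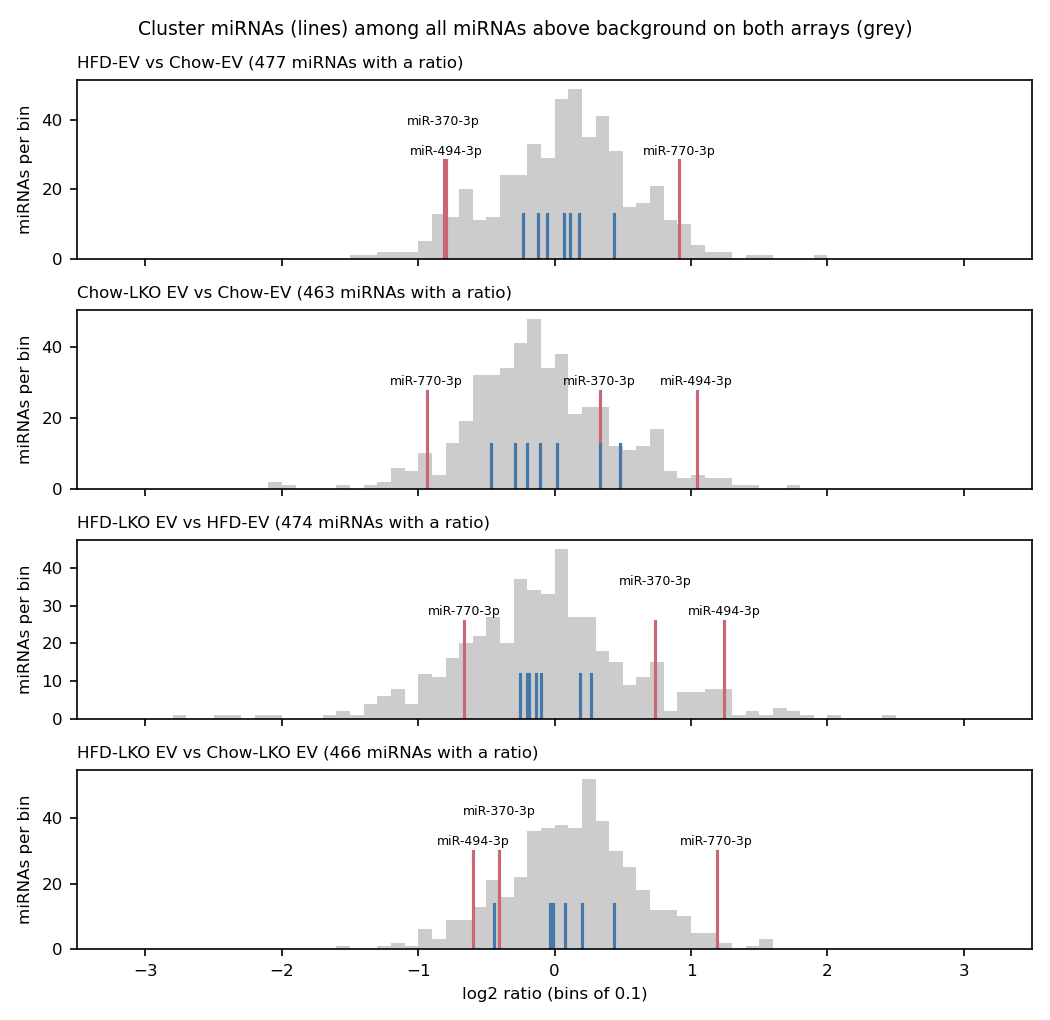
Number of miRNAs per bin of log2 ratio (grey, all miRNAs above background on both arrays) with the cluster members as vertical lines, long and labelled for miR-494-3p, miR-370-3p and miR-770-3p. miR-494-3p at 1.04 and 1.24 lies in the upper tail of both genotype comparisons, while most other members lie in the body of the distribution.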

How the data were processed

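Per the file headers, the deposited spot intensity values come from Agilent Feature Extraction 10.7.1.1, with the background of each array subtracted and no scaling from array to array. The deposited log2 values in the authors' tables are normalised signals and served as an alternative. The methods state that the data were brought to the level of U6 and name another program, but no probe on these arrays is called U6, so the normalisation behind these values could not be settled from the files. In the combined table, 1 column (HFD-EV) reached 31.4 where the other 3 reached 16.4, so it was not used and the HFD-EV values came from the table of that comparison. The authors' fold changes and flags were not used.

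Control and outlier spots were left out, spots were averaged per probe and probes summed per miRNA. The call above background required that over 0.5 of the spots of any 1 probe carried the software's mark. Members above background on both arrays have a log2 ratio, and those on 1 array a bound. The bound was taken against the signal on the dimmer array or the lowest signal above background there, whichever was higher. Where the signal was higher, the bound is a plain ratio to a signal not above background, and not a lower limit. All members above background on at least 1 array are named, with the 3 markers given for the cluster, the ends of each host gene and the 3 miRNAs closest to miR-494-3p. The members, the marker lists and these rules were chosen with earlier results of these data known. With 1 array per group, the number of arrays limits the precision, and no test was made. The lists of other imprinted loci and of hepatocyte, mesenchymal, immune and Kupffer, endothelial, erythroid and neural miRNAs were read in the same way. Alternatives covered scaling, background correction, probe summary, detection, filters, the authors' values and a 1.5-fold rule. The steps were tested on simulated data. Host genes and sequences are from RefSeq (GRCm38.p6). Python 3.11.15, numpy 2.4.6, pandas 2.3.3, matplotlib 3.10.9, R 4.3.3 and limma 3.58.1 were used.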

Additional observations from a re-analysis of the deposited data

How the results depend on the processing

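The count of members above background was 12 with most spots of every probe required and 12 over members with a single RefSeq position, and 17 with the detection call of Feature Extraction. That call also raised the count of all miRNAs on an array, to 541 to 577 from 482 to 508. The members called on an array were 11 to 16 with it and 10 to 12 without. For HFD-EV compared with Chow-EV, the members' median log2 ratio of 0.0071 moved to 0.15 with no scaling, -0.12 with quantile normalisation and 0.22 with values under the floor set to it, which is the ratio of the floors of the arrays, and the count of 0 members past 2-fold became 1 higher with no scaling and with the brightest probe, 1 lower with the Feature Extraction call, and 3 at 1.5-fold (1 higher, 2 lower). For Chow-LKO EV compared with Chow-EV, the median of -0.045 moved to 0.23 with no scaling and 0.11 with scaling by the percentile of every miRNA, and the count of 2 higher and 0 lower became 1 higher with normexp and with a signal over 30 on both arrays, 1 lower with the brightest probe, 1 higher and 1 lower with the total gene signal and with the Feature Extraction call, and 0 in the authors' values. For HFD-LKO EV compared with HFD-EV, the median of -0.12 turned to 0.0094 with quantile normalisation and moved to -0.45 with values set to the floor, and the count of 1 higher became 2 with the brightest probe (1 higher, 1 lower), 3 with the Feature Extraction call (3 higher) and 3 at 1.5-fold (2 higher, 1 lower). For HFD-LKO EV compared with Chow-LKO EV, the median of -0.022 moved to -0.24 with no scaling, -0.18 with scaling by the percentile of every miRNA and -0.17 with quantile normalisation, and the count of 1 higher became 0 with no scaling, normexp and the authors' values and 3 at 1.5-fold (1 higher, 2 lower). Of 320 alternative values of 40 ratios of single members, 206 stayed within 1 spot SD, 113 moved by more, and 1 of a ratio past 2 spot SDs changed sign, that of miR-3070-2-3p in Chow-LKO EV compared with Chow-EV, which was -0.038 with normexp. Except where a setting's own construction shows it, the cause was not tested. The shares of all miRNAs past 2-fold or 1.5-fold under these settings are not given, so the counts describe single members. No paired analysis was possible because each group is 1 array. Signals near background limit miR-3070-3p, miR-3070-2-3p, miR-300-3p, miR-1188-5p and miR-666-5p, and miR-770-3p in Chow-LKO EV.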

Other observations

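Of 10 miRNAs on the array from other imprinted loci, 3 were above background on at least 1 array. Over all miRNAs it was 542 of 1881 (28.8%), so this count is not shown to be particular to imprinted loci. miR-675-5p, which is processed from H19, was at 46.4 in Chow-EV against 36.7 in HFD-EV, while Chow-LKO EV gave 43.4 against 46.7 in HFD-LKO EV. miR-483-5p, from an intron of Igf2, was at 835.2, 768.1, 973.7 and 939.8 in the same order. miR-296-5p, from the Nespas and Gnas locus, was above background on 3 arrays at 35.1, 47.4 and 33.2, and not in HFD-EV. The other arms miR-675-3p and miR-483-3p, both arms of miR-335 (Mest) and of miR-298, and miR-296-3p were below background on all 4 arrays.

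The miRNAs with the pattern closest to that of miR-770-3p, looked up after its values were seen, were miR-31-5p, miR-682 and miR-6351, with root mean square differences of centred log2 signals of 0.071, 0.074 and 0.10 among 442 others. The haematopoietic miRNA miR-142a-3p was in place 4 at 0.11, while the other immune miRNAs above background, miR-155-5p and miR-223-3p, were in places 236 at 0.63 and 385 at 0.99. miR-31-5p had signals of 237.3 in Chow-EV against 511.6 in HFD-EV, while Chow-LKO EV gave 136.0 against 306.5 in HFD-LKO EV.

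The detection call of Feature Extraction added 5 members to the 12. miR-493-3p, miR-882 and miR-667-3p were called on 3 arrays each, and miR-431-5p and miR-3071-3p on 1 array each. The highest signals of these 5 were 35.1, 12.4, 39.4, 9.93 and 15.3, in this order.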
